A study of Mus musculus with 6 samples.

Results

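Antisense RNAs are transcripts read from the DNA strand opposite to another gene. Those expressed in muscle stem cells (MuSCs), the PAX7-positive cells beneath the basal lamina of myofibers, were chosen by 1 rule: an antisense biotype in the deposited gene table and a mean signal of at least 20 over the 6 libraries. *Nespas*, *Airn* and *Kcnq1ot1*, the sex chromosomes and an interval of chromosome 10 around *Sirt6* were left out. Of 1482 antisense genes among the 25166 genes of the table, 51 reached that mean, 3 were left out and 48 remained, on 19 chromosomes. Expression is given as signal, as the authors deposited it. No unit is stated, and the values were taken to be reads divided by 1 scaling factor per library and rounded. Since the members were chosen by their mean signal, being expressed is not a finding about them. The mean of 20 was reached in both groups by 39 of the 48, while 5 were under it in Sirt6mKO (*Gm13703*, *Emx2os*, *Gm15991*, *Gm49774* and *Gm6277*) and 4 in control libraries (*Gm17690*, *Gm15337*, *Gm48529* and *9530026P05Rik*). These 9 entered through the group in which they are higher. *Gm49774*, *Gm17690* and *Emx2os* lay just inside the limit, each at a mean of 20, and *Gm10069* (19.83), *Gm45767* (19.67) and *Gm45894* (19.5) just outside it.

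Transcription from the strand opposite to a gene is widespread in mammals. Antisense RNAs are usually spliced, low in abundance and enriched in the nucleus, and many start from the same promoter region as the gene they face. Some act on that gene in cis through transcription, chromatin or RNA pairing, others serve as precursors of small RNAs, and for most no function is known.

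The study isolated MuSCs by FACS, 100 to 200 cells per sample, from C57BL/6 mice that were 12 weeks old. In Sirt6mKO mice (n = 3), floxed exons 4 to 6 of *Sirt6*, which encodes a nuclear NAD-dependent deacetylase, were deleted by Cre made from the *Pax7* promoter, which is active without an inducer and hence not limited to adult MuSCs. The controls (n = 3) are labelled wild type and are described by the study as littermates with floxed *Sirt6* and no Cre. Only the Sirt6mKO mice thus carry Cre, and its presence and the loss of *Sirt6* cannot be told apart in these groups. Total RNA was depleted of ribosomal RNA and sequenced with a stranded kit according to the labels. Nothing states whether the replicates were pooled animals, so the p-values measure the spread between these samples. By factors estimated from the values themselves, the signal rests on about 1267947 to 3211528 assigned reads in a library. A single read would then add 0.729 to 1.792 to it. *Sirt6* had a signal of 19, 20 and 13 in Sirt6mKO and of 18, 17 and 20 in control MuSCs, a difference within the spread. Reads of the remaining exons count towards that gene, so its total does not check the deletion. *Pax7*, which encodes the defining transcription factor of MuSCs, was present in every library and lower in Sirt6mKO, with 1841, 2307 and 1810 against 4066, 3449 and 3150 (log2 fold change -0.84, SE 0.13, adjusted p 0.0041, limma).

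Some markers of other cell types differed between the groups. The summed signal of 10 myofiber markers was 999 to 2527 in Sirt6mKO and 675 to 828 in control libraries, with 2 of 10 higher, and that of 8 fibroblast markers 9462 to 11559 against 6553 to 10218, with 3 of 7 tested genes higher. The sum over 10 MuSC markers was 11364 to 11826 against 13303 to 14819, with 1 of 10 lower. Other lists were low in both groups: the sums were 24 to 39 against 12 to 38 for 5 endothelial genes, 37 to 77 against 36 to 65 for 3 immune genes and 51 to 107 against 80 to 117 for 5 Schwann cell genes, with none of their tested genes past both thresholds (1, 1 and 3 tested). *Emcn* of the endothelial list and *Ptprc*, *Itgam* and *Cd3e* of the immune list were not listed in the table. Fewer cells of a type and less RNA per cell cannot be told apart in such bulk samples, and the part of other cells in the results below was not tested.

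Each antisense RNA was set beside the genes that overlap it by at least 1 base on the other strand. This gave 79 pairs with 79 partner genes, of which 68 had a mean signal of at least 5 and were tested. All 48 had a protein-coding partner, 36 had 1 partner, 12 had more, and 5 had no tested partner. *BC037039*, of 2205 bases, alone overlaps 20 genes of the gamma-protocadherin cluster (*Pcdhg*), which encode neuronal cell adhesion proteins. It lies inside all of them but *Pcdhgc3*, with which it is head-to-head, so these 20 pairs share 1 antisense RNA. The other 48 tested pairs comprised 17 head-to-head pairs, in which the start of the antisense RNA lies within the overlap, 14 tail-to-tail pairs, in which its end does, 14 antisense RNAs inside their partner and 3 partners inside the antisense RNA. In 7 of these 48 the exons did not overlap.

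Overlapping genes can be read apart only if the strand of a read was used in counting. Of 182 annotated genes whose exons lie wholly under exons of the same strand, 0 were listed in the table. Of 240 genes whose exons lie wholly under exons of the other strand, 123 (51.25%) were listed. Reads were therefore assigned by strand. Some reads can still carry the wrong strand: 6 antisense genes that lie almost wholly under exons of a strongly expressed partner had 1.145 to 5.975% of the partner's signal per kb, with a median of 3.169%. This range includes any true antisense RNA of these 6 genes. It does not count wrong-strand reads from introns of a partner or uneven coverage along its exons, which were not tested. Applied to the exon overlap of each tested pair, the median share gave more than 50% of the antisense signal in 0 pairs, and the highest share did so in 2, *Gm48529* with *Tagln* and *BC037039* with *Pcdhgc3*.

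The antisense RNAs were weakly expressed. Their mean signal ran from 20 to 190.0 with a median of 27.7, and in the library where each was lowest the signal rested on 4 to 127 reads, with a median of 15. Per kb of exon the level ran from 0.81 to 57.2 with a median of 9.29, against 0.72 to 1120 with a median of 23.5 for the tested partners. The 10 highest levels per kb were those of *Gm13703* (57.2), *Gm16133* (43.3), *Gm11266* (32.5), *Gm45552* (31.1), *Gm27206* (30.5), *Gm15879* (24.3), *Gm9947* (22.5), *Gm16536* (22.2), *5033421B08Rik* (22.1) and *2010310C07Rik* (21.6). Only *Gm13703* among these 10 passed the test between the genotypes.

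**Figure D1:**
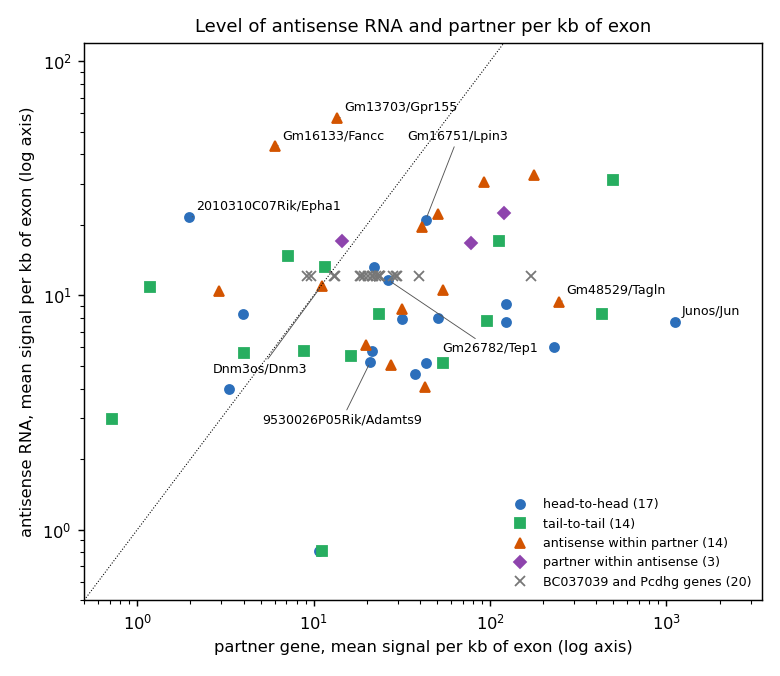
Mean signal per kb of exon over the 6 libraries, on log axes, of the partner gene (x) and the antisense RNA (y) in the 68 tested pairs, with symbols for the arrangement of each pair and a dotted line where both are equal. Most pairs lie to the right of the line, and the labelled Gm13703, Gm16133 and 2010310C07Rik are among those above it.

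In 12 of the 48 tested pairs without *BC037039* the antisense RNA was above its partner per kb. *2010310C07Rik* reached 1103% of *Epha1*, which encodes an ephrin receptor and had a signal of only 6 to 10. *Snhg16* reached 921% of *St6galnac2*, a sialyltransferase gene with a signal of only 3 to 14, and *Gm16638* 411% of *Tmc3*, with 4 to 10. *Gm16133*, the member with the highest signal, reached 721% of *Fancc*, a gene of the Fanconi anemia DNA repair pathway, inside which it lies. It had 188, 198 and 213 in Sirt6mKO against 182, 131 and 228 in control MuSCs, and the groups overlapped. *Fancc* had 32, 51 and 44 against 50, 67 and 57 (log2 fold change -0.46, SE 0.22, adjusted p 0.29, limma). At the other end, *Junos* was at 0.69% of *Jun* per kb, *Gm17276* at 1.91% of *Notch3*, which encodes a Notch receptor expressed in quiescent MuSCs, and *1600020E01Rik* at 2.63% of *Pcbp1*.

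Which antisense RNAs differed between Sirt6mKO and control MuSCs was tested with limma on log2(signal + 1) over all 14227 genes with a mean of at least 5. To pass, a gene needed an adjusted p (Benjamini-Hochberg) no higher than 0.05 and at least a 2-fold change. *Gm26782* and *Gm13703* were lower in Sirt6mKO, that is 2 of 48, where 1.02% of all tested genes were lower. As *Gm13703* entered the 48 only through its controls, with a mean of 11.33 in Sirt6mKO, this count is a description. None of the 48 was higher (0 by limma-trend and 1 by limma voom), where 1.57% of all tested genes were. At an unadjusted p under 0.05 there were 11 members, 6 higher and 5 lower, or 22.9%, beside 18.1% of all tested genes. The groups did not overlap for 12 members, 5 above and 7 below the controls, or 25.0%, beside 21.2% of all tested genes. Both shares lie near those of the whole table. The median log2 fold change of the 48 was 0.04, beside 0.00 for all tested genes. Their median absolute value was 0.29, beside 0.22 for all tested genes and 0.20 for those with a mean of 20 to 200. It was also 0.29 for long intergenic noncoding RNA genes with a mean of at least 20. The SE of a member's log2 fold change was 0.14 to 0.46, with a median of 0.28, and no member with a change below 2-fold reached the adjusted p.

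**Figure D2:**
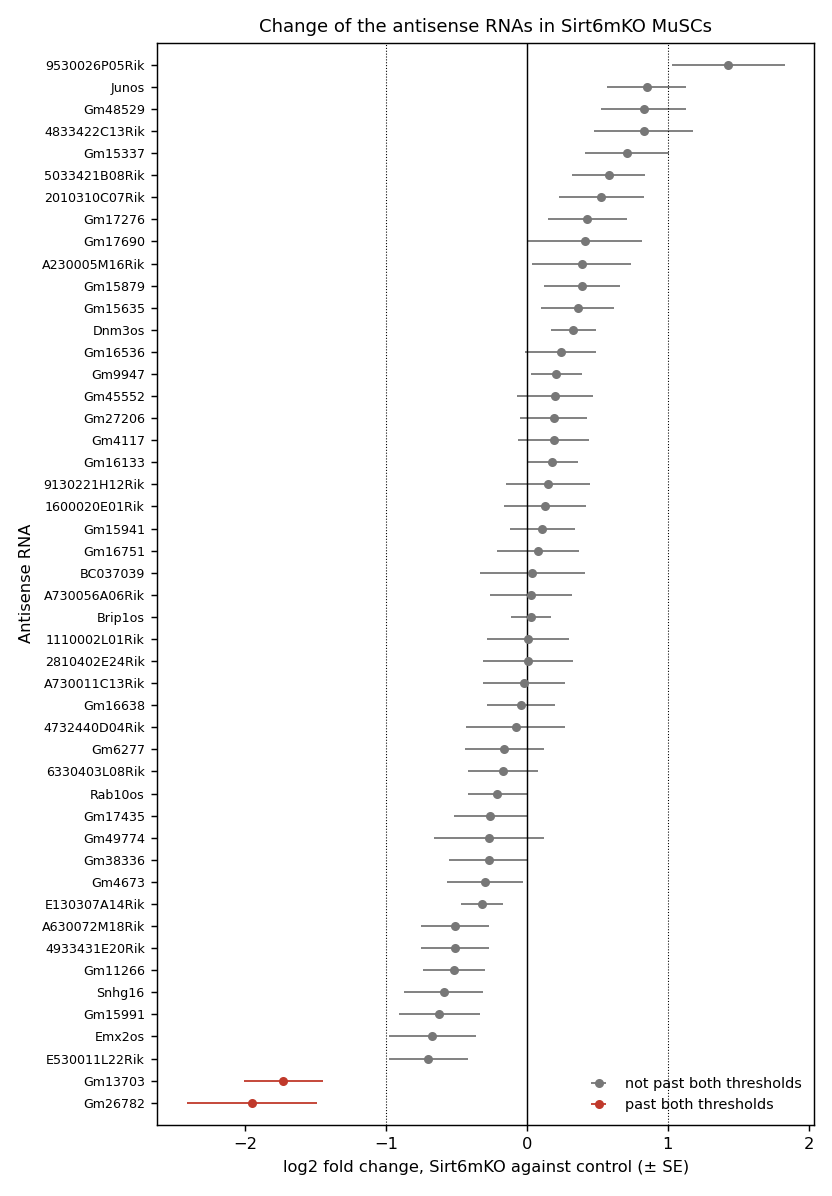
Log2 fold change of Sirt6mKO against control (x), with its SE as a bar, for each of the 48 antisense RNAs (y), ordered by size. Gm26782 and Gm13703, in red, pass both thresholds, while 32 of the 48 lie within 0.5 of 0.

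*Gm13703* (chr2:73357268-73364333 of GRCm38, plus strand) is a spliced antisense RNA of 2 exons inside *Gpr155*, which encodes a lysosomal membrane protein that senses cholesterol. The 3 Sirt6mKO libraries had a signal of 9, 13 and 12, against 31, 44 and 45 in the controls. Every Sirt6mKO library lay below every control (log2 fold change -1.73, SE 0.28, adjusted p 0.0047, limma), and the difference passed the adjusted p in all 15 alternative settings, in which the adjusted p was 0.0030 to 0.030. *Gpr155* had 86, 91 and 78 against 69, 112 and 104, and the groups overlapped (log2 fold change -0.13, SE 0.19, adjusted p 0.79, limma). *Gm13703* amounted to 10.47, 14.29 and 15.38% of the signal of *Gpr155* in Sirt6mKO and to 44.93, 39.29 and 43.27% in control libraries. Per kb of exon, over the 6 libraries, it was above its partner at 424%, with merged exons of 0.449 kb against 6.679 kb for *Gpr155*.

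The 449 bases of the *Gm13703* transcript lie under 2 coding exons of *Gpr155* over 35 and 85 bases, and are otherwise opposite to its introns. The stretch that spans both is shown because it is the only sequence in which the exons of the pair overlap; it lies in the second exon of *Gm13703*, at chr2:73363988-73364252 on the plus strand of GRCm38, and is taken from the GENCODE transcript. Capitals mark the bases that are complementary to coding sequence of *Gpr155*.
Gm13703: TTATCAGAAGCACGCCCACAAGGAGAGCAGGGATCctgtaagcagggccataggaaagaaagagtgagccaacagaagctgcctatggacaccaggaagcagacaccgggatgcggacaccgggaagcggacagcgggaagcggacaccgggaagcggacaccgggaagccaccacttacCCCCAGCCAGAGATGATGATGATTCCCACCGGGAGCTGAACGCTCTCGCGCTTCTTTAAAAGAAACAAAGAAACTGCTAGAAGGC

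The log2 ratio of antisense RNA to partner was compared between the genotypes over all 259 pairs of antisense and opposite-strand genes with a mean of at least 5 each. The pair *Gm13703* and *Gpr155* was the only one of the 68 pairs of members to pass both thresholds, beside 2.32% of all 259 pairs. Its ratio was lower in Sirt6mKO by a log2 difference of -1.60 (SE 0.36, adjusted p 0.043, limma). The call held in 5 of 13 alternatives, over which the adjusted p was 0.017 to 0.27. Leaving out any library but control replicate 3 ended it (adjusted p 0.069 to 0.2, limma), as did no filter on low values (0.27) and a pseudocount of 0.1 (0.064), among others.

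*Gm26782* (chr14:50870324-50880603, plus strand) and *Tep1* are arranged head-to-head, with 237 bases in common. *Tep1* encodes a protein of the telomerase and vault particles. The signal of *Gm26782* was 10, 11 and 49 in Sirt6mKO and 66, 85 and 65 in control MuSCs. Sirt6mKO replicate 3 was far above the other Sirt6mKO libraries, though still below every control (log2 fold change -1.95, SE 0.46, adjusted p 0.030, limma). Without Sirt6mKO replicate 3 the log2 fold change was -2.66, and without another library it was -1.56 to -2.02. Leaving out any library but Sirt6mKO replicate 3 ended the call, with an adjusted p of 0.062 to 0.17, as did no filter on low values (0.06) and robust empirical Bayes (0.11). Over all alternatives the adjusted p was 0.00028 to 0.17. *Tep1* had 256, 283 and 232 against 255, 233 and 260 and its groups overlapped (log2 fold change 0.04, SE 0.12, adjusted p 0.91, limma), with a sign that turned to -0.03 and -0.01 without Sirt6mKO replicate 2 and control replicate 2. The difference in log2 ratio was -1.99 (SE 0.55) and missed the threshold (adjusted p 0.081, limma), but passed in 4 of 13 alternatives, with an adjusted p of 0.002 to 0.51. The lowest was that without Sirt6mKO replicate 3, where the difference was -2.77.

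The 250 bases before the RefSeq start of *Gm26782*, at chr14:50870046-50870295 on the plus strand of GRCm38.p6, are shown since the RNA differed between the groups and the groups of its partner overlapped. They lie within the span of *Tep1*, and the start in the deposited table is 28 bases further on. They hold 48.0% G and C, beside a median of 52.4% over 32851 such windows of all genes, and an observed-to-expected CpG ratio of 0.52, beside 0.37. None of the motifs searched on both strands, which are spelled out for *Jun* further on, was found in them, so no base is in capitals.
Gm26782: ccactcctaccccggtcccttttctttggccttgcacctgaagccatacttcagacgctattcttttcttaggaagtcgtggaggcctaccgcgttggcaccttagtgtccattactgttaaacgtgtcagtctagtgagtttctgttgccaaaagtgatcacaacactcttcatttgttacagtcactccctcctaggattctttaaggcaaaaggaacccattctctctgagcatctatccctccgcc

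*9530026P05Rik* (chr6:92940329-93272979, plus strand), head-to-head with *Adamts9*, had the highest log2 fold change of the 48 and missed the adjusted p. *Adamts9* encodes a secreted metalloprotease that cleaves proteoglycans. The signal of *9530026P05Rik* was 35, 54 and 39 in Sirt6mKO and 27, 17 and 7 in control MuSCs. The 7 of control replicate 3 stood for an estimated 4 reads. The groups did not overlap (log2 fold change 1.43, SE 0.40, adjusted p 0.062, limma). It passed both thresholds with a pseudocount of 5, with voom and without control replicate 1, among 4 alternatives past the adjusted p, and the adjusted p was 0.017 to 0.26 over the alternatives. *Adamts9* had 247, 329 and 311 against 354, 312 and 335, and the groups overlapped. The difference in log2 ratio was 1.61 (SE 0.43, adjusted p 0.076, limma), and it passed in 4 of 13 alternatives, with an adjusted p of 0.022 to 0.35.

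**Figure D3:**
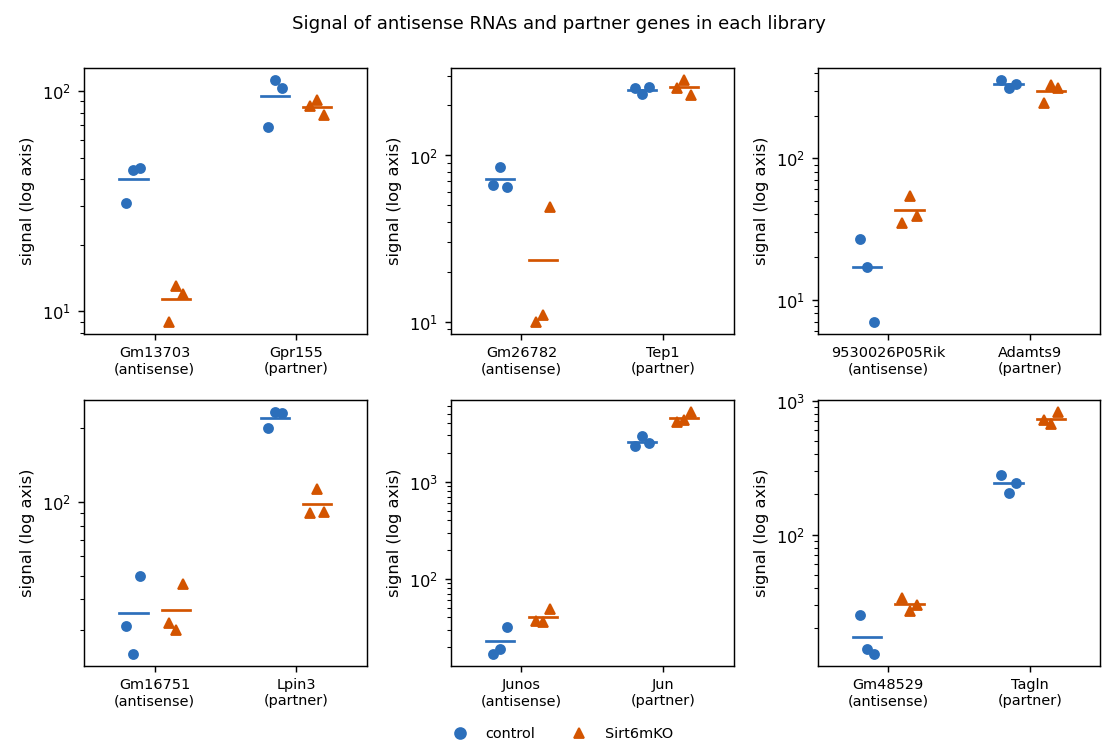
Signal in each of the 3 control (circles) and 3 Sirt6mKO (triangles) libraries, on a log axis, of the antisense RNA and the partner gene in 6 pairs, with lines at the group means. Gm13703 and Gm26782 lie lower in Sirt6mKO while the groups of their partners overlap, Lpin3 lies lower while those of Gm16751 overlap, and Junos, Jun, Gm48529 and Tagln lie above the controls in every Sirt6mKO library.

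Among the 68 tested partners, *Tagln* was higher (1 gene, where 1.57% of all tested genes were) and *Lpin3* lower (1 gene, where 1.02% of all were). By the adjusted p alone 4 partners passed, with *Jun* and *Slco2b1* besides, where 4.52% of all tested genes did. The groups did not overlap for 16 partners, 13 above and 3 below the controls, or 23.5%, beside 21.2% of all tested genes.

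*Tagln* encodes transgelin, an actin-binding protein abundant in smooth muscle and in myofibroblasts. In Sirt6mKO MuSCs it had 717, 670 and 817, against 278, 206 and 244 in the controls, without overlap (log2 fold change 1.60, SE 0.13, adjusted p 8e-05, limma). *Gm48529* (chr9:45930112-45933738, plus strand), inside *Tagln*, had 34, 27 and 30 against 25, 14 and 13. Its groups did not overlap either, but it missed the threshold (log2 fold change 0.83, SE 0.30, adjusted p 0.16, limma). As 1241 bases of its exons lie under exons of *Tagln*, wrong-strand reads at the shares given above would amount to a signal of 3.49 to 18.23, with 9.67 at the median share, of its mean of 23.83. The difference in log2 ratio was -0.77 (SE 0.33, adjusted p 0.34, limma).

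*Lpin3* encodes a phosphatidate phosphatase of the lipin family, which makes diacylglycerol for lipid synthesis. Its signal fell from 200, 232 and 231 in control to 90, 113 and 91 in Sirt6mKO MuSCs (log2 fold change -1.17, SE 0.14, adjusted p 0.00075, limma). *Gm16751* (chr2:160840836-160888028, minus strand), which overlaps it head-to-head over 7359 bases with no exon in common, had 32, 30 and 46 in Sirt6mKO and 31, 24 and 50 in control, with overlapping groups (log2 fold change 0.08, SE 0.29, adjusted p 0.93, limma). The log2 ratio of *Gm16751* to *Lpin3* was higher in Sirt6mKO by 1.25 (SE 0.40) and missed the threshold (adjusted p 0.14, limma), which it passed in 1 of 13 alternatives, with a pseudocount of 5 (0.037, with 0.037 to 0.46 over the alternatives).

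*Jun*, an immediate early gene that encodes a subunit of the transcription factor AP-1, was the most abundant partner per kb. It had 4090, 4300 and 5182 in Sirt6mKO MuSCs, against 2358, 2943 and 2481 in the controls. The groups did not overlap, and *Jun* passed the adjusted p in the main test and all 15 alternatives while its change stayed under 2-fold (log2 fold change 0.80, SE 0.13, adjusted p 0.0047, limma). *Junos* (chr4:95051534-95167318, plus strand), which is transcribed away from *Jun*, had 37, 36 and 49 against 17, 19 and 32. Its groups did not overlap, and it missed the threshold (log2 fold change 0.85, SE 0.28, adjusted p 0.11, limma), but passed without control replicate 3 (log2 fold change 1.12, adjusted p 0.035, with 0.035 to 0.33 over the alternatives). The log2 ratio of *Junos* to *Jun* differed by 0.05 (SE 0.26, adjusted p 0.96, limma). With 232 bases of exon overlap, wrong-strand reads of *Jun* would amount to a signal of 2.96 to 15.47, with 8.21 at the median share, of the mean of 31.67 of *Junos*.

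In RefSeq the first start of *Junos* lies 95 bases upstream of that of *Jun*, so both starts share 1 promoter region, while the deposited table starts *Junos* within *Jun*. The 250 bases before the start of *Jun* are shown because both RNAs were higher in each Sirt6mKO library than in any control. They lie at chr4:95052223-95052472 on the minus strand of GRCm38.p6 and are read from the RefSeq table along *Jun*. Capitals mark 4 motifs, with positions counted from the start of *Jun*. The first is the Sp1 motif GGGCGG at -89, here on the other strand, which 32.7% of all 32851 windows of this length hold on either strand. The second is the CCAAT box at -65, held by 33.8% of windows. The AP-1-like motif TGACATCA follows at -45 and is held by 2.93% of windows. The last, at -32, is TATTTTTA, the core of a MEF2 motif, held by 2.45%. The TATA box motif TATAAA, held by 12.4%, was not found here. The window has 61.2% G and C and a CpG ratio of 0.68.
Jun: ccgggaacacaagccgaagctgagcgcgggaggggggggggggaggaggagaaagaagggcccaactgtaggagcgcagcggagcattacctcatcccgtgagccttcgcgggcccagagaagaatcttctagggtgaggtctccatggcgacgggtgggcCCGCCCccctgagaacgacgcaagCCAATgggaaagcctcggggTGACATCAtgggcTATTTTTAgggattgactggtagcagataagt

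*Slco2b1*, a transporter of organic anions, had 254, 177 and 271 in Sirt6mKO and 137, 133 and 163 in control MuSCs (log2 fold change 0.68, SE 0.17, adjusted p 0.038, limma), and passed the adjusted p in 10 of 15 alternatives. *Gm15635*, inside it, had 28 in every Sirt6mKO library and 17, 27 and 22 in controls, and did not pass (log2 fold change 0.36, adjusted p 0.52, limma). *Notch3* had 4104, 4873 and 3688 against 3289, 2967 and 2112, without overlap, and missed the threshold (log2 fold change 0.61, SE 0.16, adjusted p 0.056, limma), which it passed in 4 of 15 alternatives (0.017 to 0.23). Its antisense RNA *Gm17276* had a log2 fold change of 0.43 (SE 0.28, adjusted p 0.48, limma). Over 488 bases of exon overlap, wrong-strand reads of *Notch3* would amount to a signal of 2.42 to 12.64. At the median share this is 6.7, of the mean of 26.17 of *Gm17276*.

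*Dnm3os* and *Emx2os* were the only members on a list of antisense and related RNAs with long-described loci. *Dnm3os* (chr1:162217623-162225550, plus strand) lies inside *Dnm3*, which encodes a dynamin GTPase, and is the precursor of miR-199a and miR-214, microRNAs of mesenchymal tissue. *Dnm3os* had 82, 104 and 106 in Sirt6mKO MuSCs, against 82, 70 and 79 in the controls, where 1 library of each group shared the value 82 (log2 fold change 0.33, SE 0.16, adjusted p 0.32, limma). *Dnm3* had 264, 323 and 302 against 203, 195 and 337 (log2 fold change 0.32, SE 0.19, adjusted p 0.41, limma), and passed the adjusted p without control replicate 3 only (0.039, with 0.039 to 0.71 over the alternatives). The exons of the pair do not overlap, and the log2 ratio differed by 0.01 (SE 0.30). The 2 levels per kb were nearly equal (99.3%), which rests on merged exon lengths of 7.928 kb for *Dnm3os* and 24.452 kb for *Dnm3*. The mean signal was 87.17 for *Dnm3os* and 270.67 for *Dnm3*. The microRNA genes inside *Dnm3os*, *Mir199a-2* and *Mir214*, were not listed in the table, so their levels were not analysed here. Their mature sequences are shown as the known products of this RNA, from RefSeq (GRCm38.p6), with the seed (bases 2 to 8) in capitals; no seed is shared among the 4.
miR-199a-5p: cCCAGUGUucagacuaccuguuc
miR-199a-3p: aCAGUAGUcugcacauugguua
miR-214-5p: uGCCUGUCuacacuugcugugc
miR-214-3p: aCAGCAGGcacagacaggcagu

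*Emx2os* (chr19:59425104-59458635, minus strand), head-to-head with the homeobox gene *Emx2*, had 15, 20 and 11 in Sirt6mKO and 30, 21 and 23 in control MuSCs. The groups were separate by a signal of 1 and the test was not passed (log2 fold change -0.67, SE 0.31, adjusted p 0.27, limma). *Emx2* had a low signal of 9, 12 and 10 against 17, 10 and 2 (log2 fold change 0.42, SE 0.57, adjusted p 0.77, limma). The 2 of control replicate 3 lay under the signal of 3 reads in that library (5.38), and the sign turned to -0.32 without it.

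The rest of the 5 lowest and 5 highest fold changes did not pass the test. *E530011L22Rik*, tail-to-tail with *Nktr* and head-to-head with *Zfp651*, had 14, 23 and 25 in Sirt6mKO and 38, 36 and 27 in control MuSCs (log2 fold change -0.70, adjusted p 0.21, limma). *Gm15991*, inside *Psd3*, had 21, 22 and 16 against 31, 22 and 41 (log2 fold change -0.62, adjusted p 0.29, limma). *4833422C13Rik*, which overlaps *Ssbp2* and *Acot12*, had 74, 64 and 45 against 63, 20 and 29, with overlapping groups. Its log2 fold change of 0.83 (adjusted p 0.23, limma) became 1.28 without control replicate 1 and then passed (adjusted p 0.024, with 0.024 to 0.54 over the alternatives). *Gm15337*, opposite to *Arhgap26*, had 20, 28 and 35 against 14, 15 and 20 (log2 fold change 0.71, adjusted p 0.23, limma).

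Their tested partners did not pass either. *Nktr*, *Zfp651*, *Psd3* and *Arhgap26* had log2 fold changes of -0.14, -0.26, -0.27 and -0.13, with adjusted p of 0.55, 0.36, 0.21 and 0.84 (limma). *Ssbp2*, which encodes a single-stranded DNA-binding cofactor, had 220, 199 and 234 in Sirt6mKO against 168, 129 and 174 (log2 fold change 0.48, adjusted p 0.088, limma). *Acot12*, an acetyl-CoA thioesterase gene, had 17, 16 and 19 against 12, 9 and 5 (log2 fold change 0.99, SE 0.37, adjusted p 0.17, limma).

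Of the antisense RNAs named for their level per kb, *Gm11266* had 33, 28 and 41 in Sirt6mKO and 46, 46 and 54 in control MuSCs, without overlap (log2 fold change -0.52, adjusted p 0.22, limma). It lies in *Nfib*, which encodes a nuclear factor I protein, whose log2 fold change was 0.04. *5033421B08Rik*, without a tested partner, had 29, 37 and 34 against 16, 26 and 25 (log2 fold change 0.58, adjusted p 0.27, limma). The other 7, *Gm16133*, *Gm45552*, *Gm27206*, *Gm15879*, *Gm9947*, *Gm16536* and *2010310C07Rik*, had overlapping groups and log2 fold changes of 0.18 to 0.53. *Gm9947* contains *Msc*, a gene for a repressor of myogenic transcription, which had 303, 292 and 296 against 346, 305 and 281 (log2 fold change -0.06, adjusted p 0.85, limma). *Bace1*, which encodes beta-secretase and contains *Gm16536* on its other strand, had a log2 fold change of 0.00.

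*BC037039* had 21, 41 and 19 in Sirt6mKO and 33, 32 and 14 in control MuSCs, with overlapping groups (log2 fold change 0.04, SE 0.37, adjusted p 0.97, limma). Its 20 *Pcdhg* partners had log2 fold changes of 0.02 to 0.67 with a median of 0.23, and 0 of 20 passed the adjusted p, while 4 had an unadjusted p under 0.05 (20%, beside 18.1% of all tested genes). The highest were *Pcdhga5* with 121, 166 and 115 against 103, 81 and 68 (adjusted p 0.070, limma) and *Pcdhga1* with 114, 119 and 129 against 79, 65 and 93 (adjusted p 0.053, limma). They passed the adjusted p in 2 and 6 of 15 alternatives, with 0.036 to 0.29 and 0.03 to 0.17. These genes share exons at their 3′ ends, and by the methods reads on several genes were left out of the counts. Their levels per kb are still divided by exon lengths that include the shared exons. As genes of 1 cluster they are not taken as independent of each other.

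By arrangement, the median log2 fold changes of antisense RNA and partner were 0.03 and -0.12 in the 17 head-to-head pairs, 0.02 and -0.04 in the 14 tail-to-tail pairs, 0.06 and 0.12 in the 14 antisense RNAs inside their partner, and 0.21 and 0.04 in the 3 partners inside the antisense RNA. The median absolute difference in log2 ratio was 0.28 over the 48 pairs without *BC037039*, 0.40 over 191 pairs of other, mostly weaker antisense genes and 0.35 over all 259. Antisense RNAs and partners could also vary together between libraries of a group. The deviations from the group means over 6 libraries had a median Pearson's r of 0.05 over the 48 pairs, with single values of -0.95 to 0.91, beside 0.20 over all 259 pairs. With so few libraries, which share depth and scaling between both genes of a pair, these values are a description only.

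**Figure D4:**
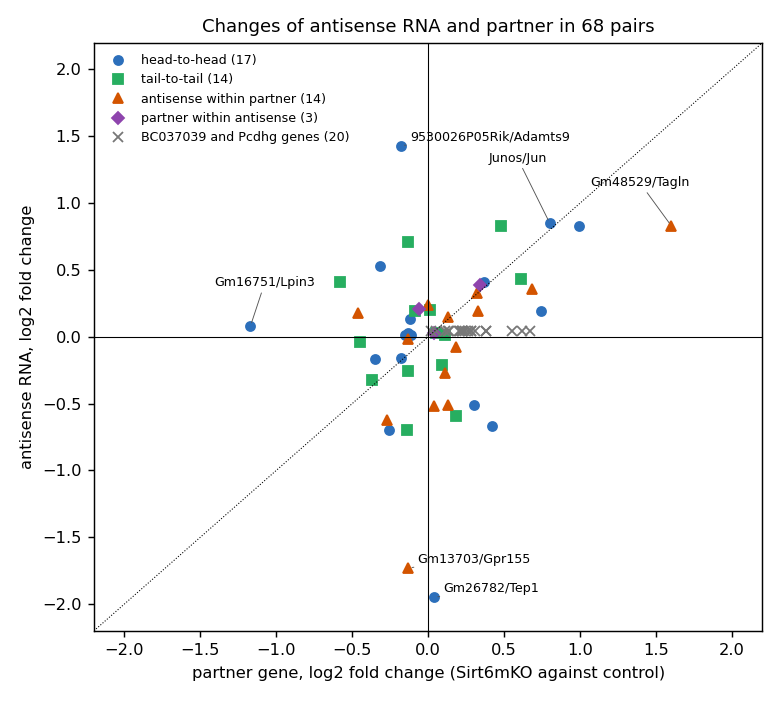
Log2 fold change of Sirt6mKO against control of the partner gene (x) and the antisense RNA (y) in the 68 tested pairs, with symbols for the arrangement and a dotted line of equal change. Gm13703 and Gm26782 lie far below the line at partners near 0, 9530026P05Rik far above it, and Junos with Jun close to it.

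Antisense transcripts are often substrates of nuclear RNA decay. The 35 tested genes of RNA surveillance and processing included subunits of the RNA exosome, though not *Exosc6*, and cofactors of it. Their values are RNA levels, and decay itself was not tested. Of the 35 genes, 0 passed the adjusted p (limma), with 6 at an unadjusted p under 0.05, or 17.1%, beside 18.1% of all tested genes. The median log2 fold change was -0.02, and the range ran from -0.45 for *Exosc4*, an exosome subunit, to 0.50 for *Adar*, which edits adenosines in double-stranded RNA (adjusted p 0.38 and 0.14, limma).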

How the data were processed

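The 6 RNA-seq libraries of sorted MuSCs (3 Sirt6mKO, 3 control) were analysed. According to the methods, the authors aligned the reads to mm10 with STAR, assigned them to genes with featureCounts, leaving out reads on several genes, and used DESeq2. The submitters' processing notes list Trimmomatic 0.39, STAR 2.7.10a, featureCounts 2.0.2 and DESeq2 1.30.1, whereas the methods name Reaper for trimming and other versions of the rest. For MuSC libraries the labels give RiboGone and a SMARTer stranded kit, in conflict with the methods (RiboMinus, Ion Total RNA-Seq). The deposited signal carries no stated unit. Its values were taken to be reads divided by 1 factor per library (0.558 to 1.372) and rounded. The factors were estimated from gaps and waves in the distribution of the values of each library.

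Positions came from the deposited table and exons from GENCODE M21 (GRCm38), which held 99.7% of the gene IDs. limma-trend (limma 3.58.1, R 4.3.3) was run on log2(signal + 1) for genes with a mean of at least 5, and log2 ratios of pairs likewise, with p adjusted over all genes or all pairs. The procedure was tested on simulated data. An exact permutation test of 3 against 3 libraries cannot go below 0.1 and was not used. The members and lists were chosen with earlier results of these data known. Named were members past both thresholds, the 5 highest and 5 lowest fold changes, the 10 highest levels per kb, long-described RNAs, and their tested partners, of which 1 is not reported here. Per-kb levels are mean signal over the merged exon length. Alternatives changed the scaling, filter, pseudocount, variance model, block, membership or libraries. Python 3.11.15, numpy 2.4.6, pandas 2.3.3 and matplotlib 3.10.9 were used.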

Additional observations from a re-analysis of the deposited data

How the results depend on the processing

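Depth is 1 limit. In the library where each antisense RNA was lowest, the median was an estimated 15 reads. No antisense RNA that changed less than 2-fold reached the adjusted p. Over all genes, 223 were higher and 145 lower in Sirt6mKO, and 97 to 291 and 84 to 152 with 1 library left out. With genes of a mean of at least 20, 148 were higher.

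Of the antisense RNAs, 0 were higher, but 1 with a pseudocount of 5 and 1 with voom, 0 to 2 with 1 library left out and 2 when members were taken from a mean of 10. The 2 lower became 1 without a filter on low values and 1 with robust empirical Bayes, 1 to 2 with 1 library left out and 0 with members from a mean of 50. Higher partners numbered 1, 1 to 2 with 1 library left out and 3 by the adjusted p alone. The lower partner, 1, became 0 when only partners with exon overlap were kept. The pairs with a different ratio, 1, became 0 without a filter, 3 with a mean of at least 20, 0 with a pseudocount of 0.1, 4 with a pseudocount of 5, 3 with robust empirical Bayes and 0 to 1 with 1 library left out. That 1 pair was *Gm26782* with *Tep1* without Sirt6mKO replicate 3, *9530026P05Rik* with *Adamts9* without control replicate 2, and *Gm13703* with *Gpr155* without control replicate 3. The causes of these shifts were not tested.

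The replicate numbers did not pair the samples: same-numbered libraries had correlations of 0.023, 0.066 and 0.188 in their deviations from the group means. With the number as a block, 1 antisense RNA was higher (*9530026P05Rik*, adjusted p 0.037, with 0.017 to 0.26 over the alternatives) and 0 pairs differed in ratio (*Gm13703* with *Gpr155* at 0.056, with 0.017 to 0.27), and whole-table counts became 268 higher and 167 lower.

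Of 597 values of the 40 named genes under the alternatives, 570 kept direction and side of the threshold, 7 lost the call, 7 gained it and 13 changed sign. The sign changes were in genes without a call. *Bace1* was at -0.01 with upper quartile scaling and at -0.02 with voom. With 1 library left out, *Gm16133* ranged from -0.03 to 0.37, *Msc* from -0.13 to 0.02, and likewise *Tep1* -0.03 to 0.11, *Bace1* -0.07 to 0.09, *Gpr155* -0.34 to 0.00, *Arhgap26* -0.32 to 0.06 and *Emx2* -0.32 to 0.97.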
